A study of Mus musculus with 12 samples.

Results

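The genes described here encode structural proteins of the red cell membrane, enzymes of haem synthesis, iron transporters and a few other proteins of maturing red cells, with no transcription factor among them. The set held 32 genes chosen by symbol, and 31 of them had a probe set, 1 each, on the arrays; Epb41, a gene of the membrane skeleton, was not listed under its symbol and is not analysed here. Of the 31, 24 lay above a filter on dim genes, a mean intensity of 60.1 over all arrays, and were tested together with 12337 of 18820 named genes. The other 7 were Tmod1, Rhd, Aqp1, Cldn13, Slc40a1, Tspo2 and Trim10. The members nearest to the filter were Icam4 at a mean of 61.6 and, on the other side of it, Aqp1 at 58.0.

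The 12 Affymetrix arrays held RNA of EML1 cells, a haematopoietic progenitor line obtained from marrow of male BDF1 mice by transduction with LRARalpha403SN, a retrovirus for a dominant-negative retinoic acid receptor that every group carried. The cells also carried either empty pWPI, a lentiviral vector, or pWPI with TEL-AML1, also called ETV6-RUNX1, which joins a pair of blood transcription factors in childhood B-cell precursor leukaemia. Each vector was profiled without treatment and on day 5 and day 7 of IL7 and FLT3L, which support early lymphoid cells, and this made 6 groups of 2 arrays. The culture protocol given for the series describes B-cell differentiation as 50000 EML1 cells on a layer of OP9 stromal cells in another medium, with 10 ng/ml IL7 and 80 ng/ml FLT3L; the sample titles do not name the stroma. The labels do not say whether a line was a clone or whether the 2 arrays of a group came from separate cultures, so the p-values measure only how far these arrays spread, and that spread may be technical. Paired values below give replicate 1 first.

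A red cell is held in shape by a spectrin and actin skeleton that ankyrin, adducin and other adaptors tie to the anion exchanger and to the blood group proteins in the lipid bilayer. Haem is built in steps that begin and end in the mitochondrion, and the iron for its last step enters the cell bound to transferrin and crosses the inner mitochondrial membrane through a carrier. In the marrow many of these genes, though not all, are raised during erythroid maturation by factors that include GATA1. Progenitors that can still enter several lineages carry less of many of the transcripts.

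All arrays had similar overall brightness, with medians between 68.1 and 72.9, and arrays of one group correlated at 0.981 to 0.997 over the genes tested, against 0.950 to 0.993 between groups. Etv6, one partner of the fusion, differed by 0.20 ± 0.047 on the log2 scale in the mean of the conditions (limma, adjusted p = 0.0107) and Runx1 by 0.076 ± 0.061 (adjusted p = 0.434); whether these probe sets read the introduced construct was not tested. Of 30 stroma markers, 27 had a probe set, and their summed intensity was 2636 and 2567 in the untreated empty-vector arrays and 2986 and 2782 in the untreated TEL-AML1 arrays. The day 5 sums were 11029 and 8732 for empty-vector arrays and 9161 and 4466 for TEL-AML1 arrays. At day 7 the sums were 3059 and 7088 for the empty vector and 2833 and 5099 for TEL-AML1. The stroma markers were thus high in most treated arrays and unequal between the replicates of the treated groups, and their part in the results was examined only by a covariate. Summed over 10 mast cell markers, the TEL-AML1 arrays lay between 11154 and 15955 and the empty-vector arrays between 9287 and 10442, with no overlap, while macrophage marker sums lay between 873 and 1067 on all arrays. Granulocyte marker sums were lower with TEL-AML1, at 4887 to 5293 against 5329 to 5590. Mpo made up most of these sums, at 2665 and 2551 in untreated TEL-AML1 arrays against 3359 and 3390. Ctsg ran the other way in untreated cells, at 1888 and 1890 against 1555 and 1513. In the mean of the conditions 1 of 5 granulocyte markers tested was called higher and 1 lower, beside 9.85% and 12.8% of all genes. Their median difference was 0.083. Megakaryocyte marker sums were lower in each condition, in untreated cells at 3726 to 3881 against 4459 to 4520. Sums over 10 B lineage markers were 597 to 611 in untreated empty-vector cells and 810.4 to 888 at day 5, and 566 to 572 and 615 to 711 with TEL-AML1. Of these markers Ebf1 went from 49.2 and 48.5 untreated to 289 and 183 at day 5 in empty-vector cells. Its day 7 values there were 60.8 and 156. Among TEL-AML1 arrays Ebf1 started at 49.1 and 47.6, reached 200 and 76.8 on day 5 and read 49.2 and 89.6 on day 7. In every treated pair Ebf1 was higher on the array with the larger stroma sum. Whether stromal cells supplied this transcript was not tested. Dntt rose from 74.3 and 73.5 to 161 and 145 at day 5 in empty-vector cells and stayed between 44.9 and 52.0 on TEL-AML1 arrays. Pax5 stayed between 53.6 and 68.1 on all arrays.

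The promoters of 5 called members are shown. With TEL-AML1, Rhag, Kel and Ermap were higher at day 7, and Mpp1 was higher and Epb42 lower in every condition. Slc14a1, Slc25a38 and Tfrc had such calls too and are not printed, so the 5 do not stand for all called members. Each is the stretch of 250 bases before the annotated start in the RefSeq table (GRCm38.p6), printed 5′ to 3′ on the strand of the gene. Rhag lies at chr17:40810899-40811148 (plus strand), Kel at chr6:41704326-41704575, Ermap at chr4:119189996-119190245, Mpp1 at chrX:75131017-75131266 and Epb42 at chr2:121036878-121037127 (all 4 minus strand). Capitals mark matches on either strand to the GATA motif (AGATAA or TGATAA), the CACCC box (CCACCC), the RUNX motif (TGTGGT or TGCGGT) and the ETS motif (CCGGAA).
Rhag: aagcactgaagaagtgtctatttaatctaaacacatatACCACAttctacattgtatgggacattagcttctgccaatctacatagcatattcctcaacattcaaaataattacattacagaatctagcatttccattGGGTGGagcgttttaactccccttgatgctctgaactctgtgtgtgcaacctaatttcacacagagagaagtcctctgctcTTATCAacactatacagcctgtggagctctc
Kel: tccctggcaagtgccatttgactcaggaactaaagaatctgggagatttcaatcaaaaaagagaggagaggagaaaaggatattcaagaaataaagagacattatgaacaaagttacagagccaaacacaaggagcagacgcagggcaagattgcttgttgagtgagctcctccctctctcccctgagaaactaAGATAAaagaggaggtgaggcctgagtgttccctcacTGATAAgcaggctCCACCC
Ermap: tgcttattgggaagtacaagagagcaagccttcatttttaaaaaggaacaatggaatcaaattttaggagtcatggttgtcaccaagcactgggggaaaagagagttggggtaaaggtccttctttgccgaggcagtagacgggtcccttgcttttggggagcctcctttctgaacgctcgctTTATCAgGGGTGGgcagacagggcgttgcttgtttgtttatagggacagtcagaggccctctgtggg
Mpp1: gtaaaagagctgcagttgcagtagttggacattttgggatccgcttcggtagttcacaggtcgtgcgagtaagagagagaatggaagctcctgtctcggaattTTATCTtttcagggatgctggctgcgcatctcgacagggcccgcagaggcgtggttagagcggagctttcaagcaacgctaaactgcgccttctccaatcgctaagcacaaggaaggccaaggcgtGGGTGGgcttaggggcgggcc
Epb42: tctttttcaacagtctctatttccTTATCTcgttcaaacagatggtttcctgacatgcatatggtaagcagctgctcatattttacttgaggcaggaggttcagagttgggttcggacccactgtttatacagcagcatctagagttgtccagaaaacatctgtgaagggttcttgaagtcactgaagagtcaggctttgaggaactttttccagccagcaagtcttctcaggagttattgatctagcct

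Each of these 5 windows held a GATA motif. The called members Tfrc and Slc25a38, not printed, also had RefSeq windows, and none of those held it. In the Rhag window it stood 31 to 26 bases before the start, on the strand opposite to the gene. Kel had 2 matches on its own strand, at 56 to 51 and 19 to 14 bases before the start, with a CACCC box at 6 to 1 bases. In Ermap the GATA motif, at 67 to 62 bases, and the CACCC box, at 60 to 55 bases, were separated by 1 base. Mpp1 and Epb42 had their GATA motifs farther out, at 147 to 142 and 226 to 221 bases. Of the 24 members tested, 18 had 22 RefSeq windows, and 9 of these windows (1 each of Alas2, Cpox, Epb42, Ermap, Icam4, Kel, Mpp1, Rhag and Uros) held the GATA motif, which was found in 9.72% of the 12526 windows of all genes tested. A CACCC box was found in 9 of the 22 windows and in 33.4% of all windows, the RUNX motif in 4 of 22 and in 17.7%, and the ETS motif in 4 of 22 and in 20.1%. The GATA and CACCC letters do not overlap in any printed window. A match of letters does not show that a factor binds there. The windows with a GATA motif belong to members that were higher with TEL-AML1, to 1 that was lower and to members with no call.

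TEL-AML1 cells had more transcript of some red cell genes and less of others. Averaged over the conditions, 8 of the 24 members tested were higher and 2 lower than with the empty vector (limma, Benjamini-Hochberg adjusted over all genes tested), where 9.85% of all genes were called higher and 12.8% lower. Mpp1, Rhag, Kel, Ermap, Add2, Slc25a38, Slc25a37 and Tfrc were the higher ones, and Epb42 and Slc14a1 the lower ones. In untreated cells 2 were higher and 2 lower, against 2.74% and 6.16% of all genes. At day 5 the counts were 3 higher and 2 lower, against 3.04% and 4.28%. At day 7 they were 6 higher and 2 lower, against 5.28% and 6%. The median difference over the 24 members was 0.059 without treatment, 0.11 at day 5 and 0.25 at day 7, beside medians of −0.0079, −0.0014 and −0.026 over all genes tested. Differences are in log2(intensity + 16) and are given with their standard errors; this scale understates the change of dim genes. Gata1, the erythroid and mast cell transcription factor, was also higher in the mean, by 1.18 ± 0.11 (adjusted p = 2.55e-05). It gave 107 and 103 untreated, 182 and 163 at day 5, and 159.9 and 142 at day 7 with the empty vector, and 238 and 239 untreated, 490.0 and 282 at day 5, and 441 and 428 at day 7 with TEL-AML1. The summed mast cell markers given above lay higher too; the part of mast cell transcripts in these results was not tested. In bulk RNA, fewer cells of a kind and less transcript per cell cannot be told apart.

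**Figure D1:**
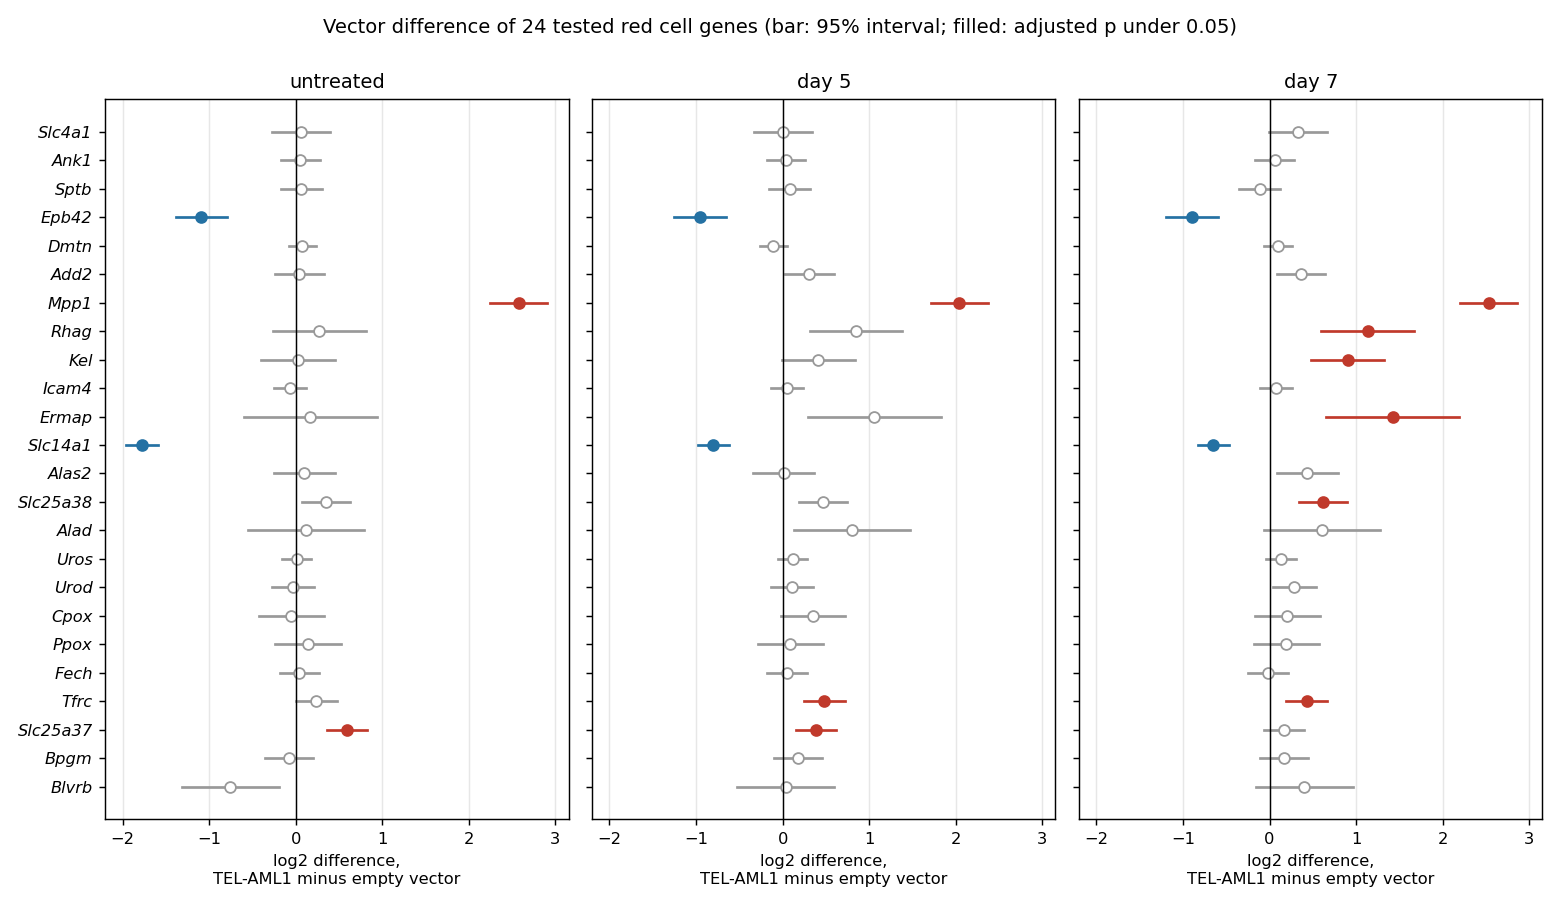
Log2 difference between TEL-AML1 and empty vector for the 24 tested genes, without treatment and on day 5 and day 7 (x axis; points are differences of 2-array means, bars 95% intervals, filled points adjusted p under 0.05). Mpp1 stood to the right and Epb42 and Slc14a1 to the left of 0 in all 3 panels, and Rhag, Kel and Ermap were filled at day 7 alone.

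Same-numbered arrays of the vectors deviated together within each condition, so the differences were also fitted with that number as a block inside each condition. With that pairing 9 members were called at day 5 in place of 5, 7 higher and 2 lower, where 6.18% of all genes were higher and 8.71% lower. The 4 added were Rhag (0.85 ± 0.13, adjusted p = 0.00627), Ermap (1.06 ± 0.23, adjusted p = 0.0198), Alad (0.80 ± 0.14, adjusted p = 0.0101) and Slc25a38 (0.47 ± 0.11, adjusted p = 0.029). At day 7 the pairing added Add2 (0.36, adjusted p = 0.0355) and Alad (0.60, adjusted p = 0.0247), which made 8 higher and 2 lower against 8.53% and 9.43% of all genes. In untreated cells it added Blvrb (−0.75, adjusted p = 0.0193), which made 2 higher and 3 lower against 4.06% and 8.02%. The mean gained Alad (0.51, adjusted p = 0.00275) and Ppox (0.14, adjusted p = 0.0274), which made 10 higher and 2 lower against 14% and 18%. Fitted with only the groups compared, the day 7 calls of Epb42 (adjusted p = 0.0611), Kel (0.128), Ermap (0.0899), Slc25a38 (0.0745) and Tfrc (0.146) and the day 5 call of Tfrc (0.103) were lost, and with array weights that of Ermap at day 7 (adjusted p = 0.0524).

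Among the genes of the membrane skeleton and its anchors, Mpp1 rose and Epb42 fell with TEL-AML1 in every condition, and Add2 was higher in the mean of the conditions; the other 4 of the 7 tested had no call. Mpp1, a scaffold that helps to tie the skeleton to membrane proteins, gave 56.9 and 54.8 in the untreated empty-vector arrays, 107 and 77.3 at day 5 and 69.1 and 79.3 at day 7. In TEL-AML1 cells it gave 401 and 425 untreated, 459 and 395 at day 5, and 575 and 442 at day 7. Every TEL-AML1 array was above every empty-vector array, the lowest of them more than 3 times the highest empty-vector value. The difference was 2.58 ± 0.15 in untreated cells (adjusted p = 1.07e-05), 2.04 ± 0.15 at day 5 (adjusted p = 5.77e-05) and 2.53 ± 0.15 at day 7 (adjusted p = 1.14e-05).

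Epb42, whose product binds ankyrin and the anion exchanger, ran the other way. Its intensities with the empty vector were 159.7 and 158 untreated, 177 and 180.3 at day 5, and 202 and 179.8 at day 7. With TEL-AML1 they were 66.3 and 66.3 untreated, 93.0 and 76.6 at day 5, and 114 and 78.9 at day 7. The highest TEL-AML1 value, day 7 replicate 1, was still below the lowest value of the empty vector. The differences were −1.09 ± 0.13 untreated (adjusted p = 0.000641), −0.95 ± 0.13 at day 5 (adjusted p = 0.00223) and −0.90 ± 0.13 at day 7 (adjusted p = 0.00204). The untreated TEL-AML1 arrays lay close to the filter of 60.1.

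Add2, the gene of beta-adducin, which joins spectrin to actin, passed in the mean of the conditions and not in a single condition of the unpaired fit. It gave 64.3 and 60.1 untreated, 62.3 and 64.5 at day 5, and 74.6 and 66.0 at day 7 in empty-vector arrays. The TEL-AML1 pairs were 65.2 and 63.9 untreated, 93.3 and 72.5 at day 5, and 109 and 82.1 at day 7. The untreated arrays of the vectors overlapped, and the treated ones did not. The mean difference was 0.24 ± 0.073 (adjusted p = 0.0399), and it missed the threshold with the stroma covariate (adjusted p = 0.076), without the filter (adjusted p = 0.0551) and with a pseudocount of 64 (0.16, adjusted p = 0.0534). Leaving out any 1 of 9 arrays raised the adjusted p to between 0.0681 and 0.103. The 9 were both untreated arrays and both day 5 arrays of the empty vector, its day 7 replicate 2, both untreated TEL-AML1 arrays, and replicate 1 of TEL-AML1 at day 5 and at day 7.

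Slc4a1, the anion exchanger of the red cell, had values between 62.2 and 119.6 with a median of 70.8, and the highest was TEL-AML1 day 7 replicate 1. Ank1, for ankyrin, ranged from 72.3 to 99.2, Sptb, for beta-spectrin, had a median of 70.0 and a highest value of 81.6, and Dmtn, for the actin-bundling protein dematin, ranged from 74.9 to 92.8. None of these 4 was called in any comparison of the main fit, which had all arrays and no block, covariate or weights. With the stroma covariate Slc4a1 passed for day 7 against untreated TEL-AML1 cells (0.49, adjusted p = 0.0349), as did Add2 (0.48, adjusted p = 0.0462). The mean vector differences of these 4 genes in the main fit had 95% intervals of −0.062 to 0.33 for Slc4a1, −0.076 to 0.18 for Ank1, −0.13 to 0.15 for Sptb and −0.068 to 0.11 for Dmtn. Tmod1, which caps actin filaments, stayed between 51.2 and 57.7, under the filter in its mean.

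**Figure D2:**
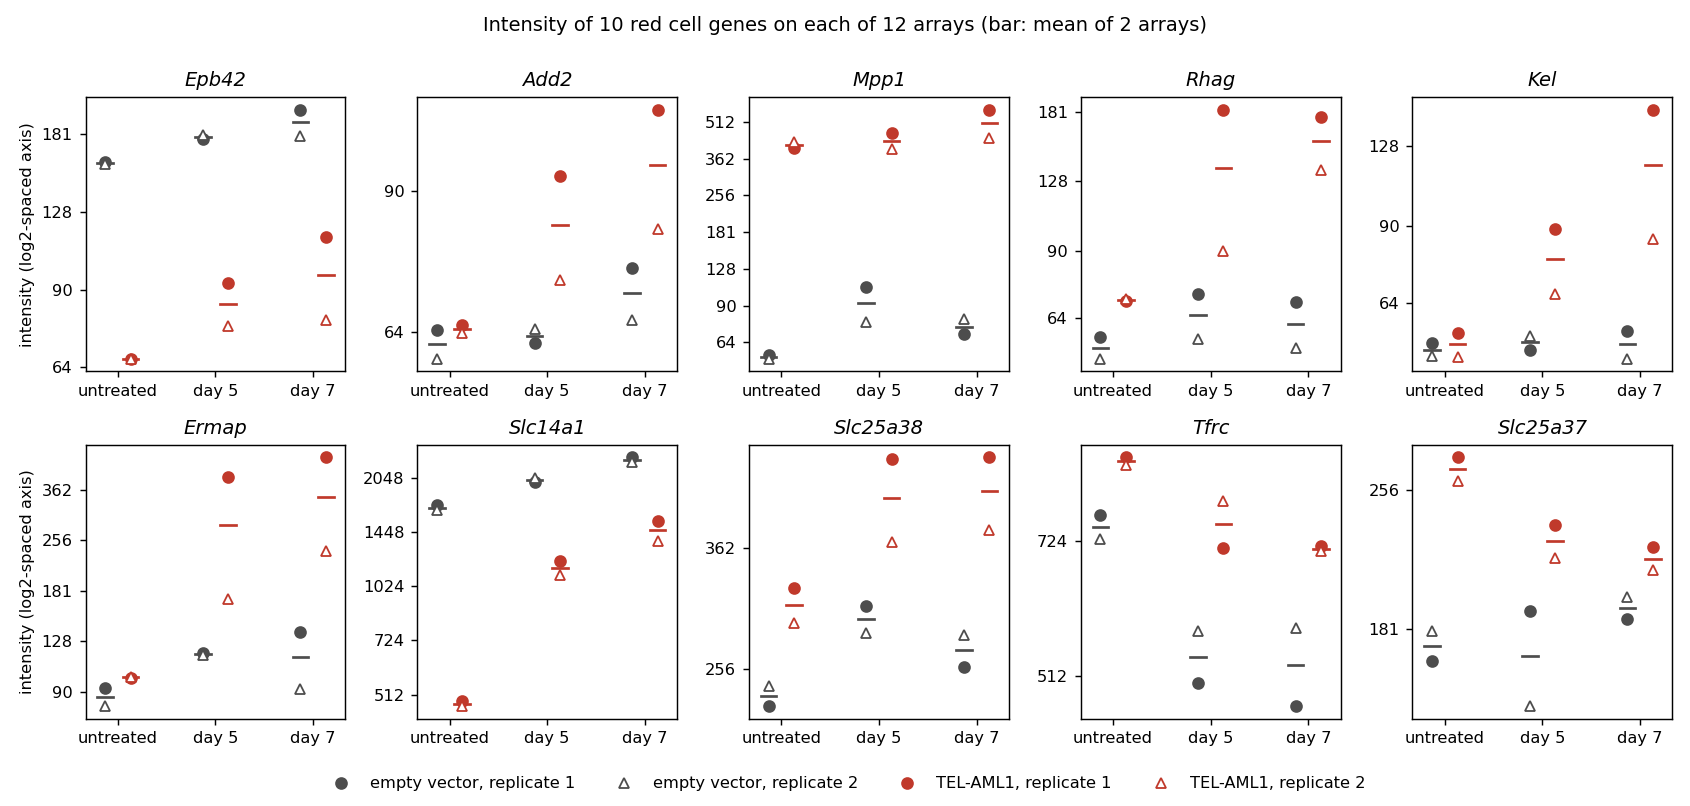
Intensity (y axis, log2-spaced) of 10 members on each of the 12 arrays by condition (x axis), with empty vector in grey, TEL-AML1 in red, replicate 1 as circles, replicate 2 as triangles and the mean of 2 arrays as a bar. Mpp1 and Epb42 were apart in every condition. The arrays of Rhag, Kel and Ermap did not overlap after treatment, with the TEL-AML1 circle above the triangle. For Rhag and Ermap at day 5 the circle and triangle lay about as far apart as the means of the vectors.

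Of 5 blood group and surface genes tested, Rhag, Kel and Ermap were higher with TEL-AML1 at day 7, and Slc14a1 was lower in every condition. Rhag encodes the glycoprotein that carries the Rh complex to the surface. It gave 58.1 and 52.2 untreated, 72.5 and 57.5 at day 5, and 69.4 and 55.0 at day 7 with the empty vector. TEL-AML1 arrays gave 69.8 and 70.4 untreated, 183 and 89.9 at day 5, and 177 and 135 at day 7. In each condition both TEL-AML1 arrays were above both empty-vector arrays, and the gap was widest after treatment. The differences were 0.28 ± 0.24 untreated (adjusted p = 0.661), 0.85 ± 0.24 at day 5 (adjusted p = 0.0642) and 1.13 ± 0.24 at day 7 (adjusted p = 0.0133). The mean over conditions was 0.75 ± 0.14 (adjusted p = 0.00289). Without TEL-AML1 day 7 replicate 1 the day 7 call had adjusted p = 0.0948, and without empty-vector day 7 replicate 2 adjusted p = 0.057.

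Kel, for the Kell endopeptidase, varied little over the 6 empty-vector arrays, at 53.6 and 50.7 untreated, 52.2 and 55.5 at day 5, and 56.7 and 50.2 at day 7. Untreated TEL-AML1 cells gave 56.2 and 50.7, within that range. Treated TEL-AML1 cells gave 88.7 and 66.8 at day 5 and 150.1 and 84.9 at day 7, above every other array. The vector difference was 0.025 ± 0.19 untreated (adjusted p = 0.988), 0.41 ± 0.19 at day 5 (adjusted p = 0.254) and 0.90 ± 0.19 at day 7 (adjusted p = 0.0133). Leaving out TEL-AML1 day 7 replicate 1 moved the day 7 difference to 0.54 (adjusted p = 0.0531), and leaving out empty-vector day 7 replicate 2 moved the adjusted p to 0.051. The mean over conditions was 0.45 ± 0.11 (adjusted p = 0.0151), 0.29 with a pseudocount of 64 and 0.27 without both treated TEL-AML1 arrays numbered 1.

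Ermap, an immunoglobulin-family protein of erythroblasts, had the largest day 7 difference of the surface genes. Its empty-vector intensities were 92.6 and 81.9 untreated, 118 and 116 at day 5, and 137 and 92.4 at day 7. With TEL-AML1 they were 99.3 and 100.4 untreated, 397 and 171 at day 5, and 454 and 238 at day 7. All 4 treated TEL-AML1 arrays were above all other arrays, yet within a pair replicate 1 was about 2 times replicate 2. The difference was 0.17 ± 0.35 untreated (adjusted p = 0.913), 1.06 ± 0.35 at day 5 (adjusted p = 0.105) and 1.42 ± 0.35 at day 7 (adjusted p = 0.0248). The day 7 adjusted p became 0.167 without TEL-AML1 day 7 replicate 1 and 0.101 without empty-vector day 7 replicate 2. The mean over conditions was 0.88 ± 0.20 (adjusted p = 0.00932) and 0.55 without both treated TEL-AML1 arrays numbered 1.

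Slc14a1, the urea transporter that carries the Kidd antigens, was lower with TEL-AML1 throughout. The empty vector gave 1719.6 and 1660.3 untreated, 1988 and 2044 at day 5, and 2334 and 2256 at day 7. TEL-AML1 gave 490.3 and 476 untreated, 1202 and 1099.8 at day 5, and 1552 and 1370.2 at day 7. The arrays of the vectors did not overlap, and the TEL-AML1 values came nearer to the empty-vector values with treatment. The difference was −1.77 ± 0.082 in untreated cells (adjusted p = 3.32e-06), −0.80 ± 0.082 at day 5 (adjusted p = 0.00031) and −0.65 ± 0.082 at day 7 (adjusted p = 0.000737).

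Icam4, a red cell adhesion protein, stayed between 52.0 and 70.0 and was called nowhere in the main fit. Rhd, the Rh antigen gene, had a mean of 53.4, under the filter, and its 4 highest values were the treated TEL-AML1 arrays, 74.5 and 49.9 at day 5 and 99.2 and 55.4 at day 7, against at most 48.2 elsewhere. The claudin gene Cldn13 also had its 4 highest values there, 80.9 and 54.1 at day 5 and 91.6 and 53.8 at day 7. Its replicate 2 values were nearly level with the 53.6 of untreated TEL-AML1 replicate 1. Fitted without the filter, the day 7 differences were 0.57 ± 0.20 for Rhd (adjusted p = 0.148) and 0.45 ± 0.19 for Cldn13 (adjusted p = 0.246), and none of the 7 dim members passed in any comparison. Aqp1, the water channel, lay between 51.2 and 64.6.

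Of the 8 haem synthesis genes, all tested, Slc25a38 alone was called against the empty vector in the unpaired fit, at day 7 and in the mean. Slc25a38 brings glycine, a substrate of the first step, into mitochondria. It gave 230.5 and 244 untreated, 307 and 284 at day 5, and 258 and 283 at day 7 with the empty vector. TEL-AML1 cells gave 323 and 292 untreated, 467 and 368 at day 5, and 469 and 382 at day 7. Within each condition the TEL-AML1 arrays were the higher ones. The differences were 0.35 ± 0.13 untreated (adjusted p = 0.134), 0.47 ± 0.13 at day 5 (adjusted p = 0.0523) and 0.62 ± 0.13 at day 7 (adjusted p = 0.0104), with 0.48 ± 0.073 in the mean (adjusted p = 0.000792). The day 7 call ended without TEL-AML1 day 7 replicate 1 (adjusted p = 0.0839) or empty-vector day 7 replicate 1 (adjusted p = 0.0574).

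Alas2, the erythroid enzyme of the first step of haem synthesis, was dim: 11 of its values lay between 56.5 and 69.5, and TEL-AML1 day 7 replicate 1 alone gave 119. Its day 7 difference was 0.44 ± 0.16 (adjusted p = 0.115). Alad, the second enzyme, gave 259 and 224 untreated, 387 and 299 at day 5, and 409 and 306 at day 7 with the empty vector. The TEL-AML1 values were 259.6 and 265 untreated, 838 and 434 at day 5, and 721 and 414 at day 7. The untreated arrays were close together, and after treatment replicate 1 of TEL-AML1 stood far above replicate 2. The day 5 difference of 0.80 ± 0.30 did not pass in the unpaired fit (adjusted p = 0.163), nor did the mean of 0.51 ± 0.17 (adjusted p = 0.0625).

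The later enzymes of the pathway were not called against the empty vector in the unpaired fit, and Urod passed at day 7 with the stroma covariate (0.35, adjusted p = 0.0456). Uros ranged from 107 to 126, Urod from 349 to 576, Cpox from 80.0 to 149, Ppox from 219 to 354 and Fech, which inserts the iron, from 249 to 315. The highest values of Urod, Cpox, Ppox and Fech were all those of TEL-AML1 day 5 replicate 1. Their mean vector differences were 0.087 ± 0.044 for Uros, 0.12 ± 0.064 for Urod, 0.17 ± 0.097 for Cpox, 0.14 ± 0.098 for Ppox and 0.026 ± 0.06 for Fech, with adjusted p between 0.221 and 0.817 for the last 4 and 0.202 for Uros.

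Both iron importers that could be tested were higher with TEL-AML1. Tfrc, the transferrin receptor through which red cell precursors take up iron, gave 775 and 728 untreated, 502 and 574 at day 5, and 473 and 578 at day 7 with the empty vector. With TEL-AML1 it gave 899 and 879.9 untreated, 711 and 803 at day 5, and 715 and 706 at day 7. The arrays did not overlap in any condition, although untreated empty-vector cells reached the levels of treated TEL-AML1 cells. The differences were 0.24 ± 0.11 untreated (adjusted p = 0.254), 0.48 ± 0.11 at day 5 (adjusted p = 0.0214), 0.43 ± 0.11 at day 7 (adjusted p = 0.0272) and 0.38 ± 0.062 in the mean (adjusted p = 0.00115). The day 5 call ended when empty-vector day 5 replicate 1 (adjusted p = 0.102) or TEL-AML1 day 5 replicate 2 (adjusted p = 0.14) was left out. The day 7 call ended when empty-vector day 7 replicate 1 (adjusted p = 0.14) or either TEL-AML1 day 7 array was left out (adjusted p = 0.114 for replicate 1 and 0.112 for replicate 2).

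Slc25a37, mitoferrin-1, carries iron into erythroid mitochondria. The empty-vector arrays gave 167 and 179.9 untreated, 189 and 149 at day 5, and 186 and 196 at day 7, while the TEL-AML1 arrays gave 278 and 261 untreated, 235 and 216 at day 5, and 222 and 209 at day 7. Every TEL-AML1 array was above every empty-vector array, by the widest margin in untreated cells. There the difference was 0.59 ± 0.10 (adjusted p = 0.00482), against 0.39 ± 0.10 at day 5 (adjusted p = 0.049) and 0.16 ± 0.10 at day 7 (adjusted p = 0.384). The untreated call ended without replicate 1 of the empty vector (adjusted p = 0.0601) or of TEL-AML1 (adjusted p = 0.0544), and the day 5 call without any 1 of 9 arrays, all but empty-vector day 5 replicate 1 and both empty-vector day 7 arrays (adjusted p between 0.0676 and 0.253). Without empty-vector day 5 replicate 2 the day 5 difference was 0.23. That call was also lost in 7 of 13 other settings, namely median centring, no filter, a pseudocount of 1, trend and robust variance, array weights, the replicate block over all arrays and only the groups compared, with adjusted p between 0.0526 and 0.231. The iron exporter gene Slc40a1 was dim throughout, at 44.5 to 50.4.

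Blvrb, a biliverdin reductase abundant in red cells, was lower on both TEL-AML1 arrays before treatment, a difference that missed the threshold with all arrays in an unpaired fit. Its untreated intensities were 528 and 484 in empty-vector arrays and 297 and 290.3 in TEL-AML1 arrays, which do not overlap (−0.75 ± 0.25, adjusted p = 0.112). The difference passed with the replicate block within conditions (adjusted p = 0.0193) or over all arrays (adjusted p = 0.0355), with array weights (adjusted p = 0.00708) and with only the groups compared (adjusted p = 0.000214). It also passed without either TEL-AML1 day 5 array (adjusted p = 0.0174) and without both treated TEL-AML1 arrays numbered 1 (adjusted p = 0.00297), where the mean over conditions passed too, at −0.35 (adjusted p = 0.00947). Treated empty-vector cells gave 578 and 515 at day 5 and 506 and 426 at day 7, and treated TEL-AML1 cells 771 and 404 at day 5 and 754 and 507 at day 7. Bpgm, which makes the phosphoglycerate that loosens oxygen from haemoglobin, ranged from 96.9 to 143 and was called nowhere in the main fit. With the stroma covariate Bpgm was lower at day 7 than untreated with the empty vector (−0.46, adjusted p = 0.0265). Tspo2, an erythroid relative of the mitochondrial translocator protein, and Trim10, a RING finger protein of red cell precursors, were dim, with highest values of 64.9 and 60.3, both in TEL-AML1 day 7 replicate 1.

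Over all conditions, 4 of the 24 members separated the 6 TEL-AML1 arrays from the 6 empty-vector arrays: Mpp1 and Slc25a37 were higher on each, and Epb42 and Slc14a1 lower on each. Among all genes tested 3.55% were higher and 5.95% lower in this sense. Taking the conditions one by one, untreated first, 12, 11 and 16 members were higher on both TEL-AML1 arrays, against 23.9%, 24.8% and 21.6% of all genes. In the same order 5, 3 and 2 were lower on both, against 34%, 21.9% and 28.4%.

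In treated TEL-AML1 cells replicate 1 was the higher array for most of these genes, for 19 of 24 at day 5, 22 at day 7 and 18 at both times. Replicate 1 was above replicate 2 by more than 0.3 on the log2 scale in 11 of 24 members at day 5 and in 10 at day 7, where 6% and 3.2% of all genes tested showed such a gap. None of the 24 showed the opposite gap in any group, where between 82 and 1241 of the 12337 genes tested did, depending on the group. In untreated cells of either vector no member had replicate 1 higher by more than 0.3, against 0.965% and 0.884% of all genes. With the empty vector 4 members had replicate 1 higher by that much at day 5 and 3 at day 7, against 8.24% and 7.62%. The median gap over the members was 0.22 at day 5 and 0.27 at day 7 with TEL-AML1, beside −0.015 and −0.0059 over all genes.

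**Figure D3:**
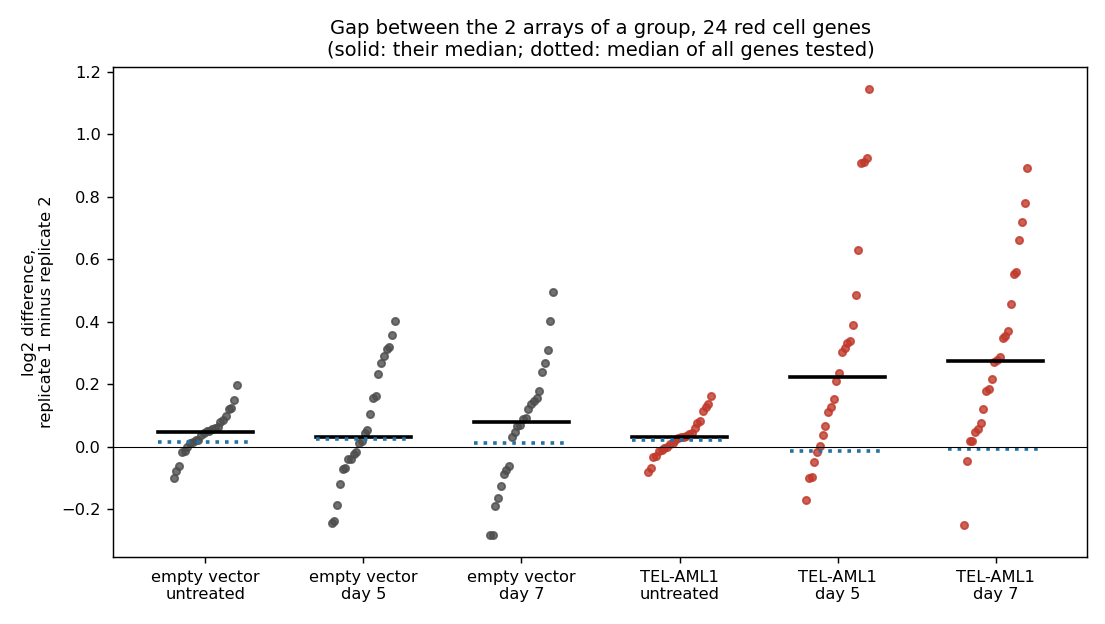
Log2 difference between replicate 1 and replicate 2 (y axis) for the 24 tested members in each of the 6 groups (x axis; points are genes in rank order, solid lines their medians, dotted lines the medians of all genes tested). In the treated TEL-AML1 groups the points reach above 0.8, and in the untreated groups they stay within 0.2 of 0.

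The members with the gap at both times were Add2, Rhag, Kel, Ermap, Alad and Blvrb, 6 of 24, and 0.811% of all genes had it at both. Ermap differed by 1.14 at day 5 and 0.89 at day 7, Alad by 0.92 and 0.78, and Blvrb by 0.91 and 0.56. Rhag differed by 0.91 and 0.35 and Kel by 0.34 and 0.72. Of the dim members, Rhd differed by 0.46 and 0.69 and Cldn13 by 0.47 and 0.62. Mpp1 differed by 0.21 at day 5 and 0.37 at day 7. Slc14a1 differed by 0.13 and 0.18, Slc25a37 by 0.11 and 0.076, and Tfrc by −0.17 and 0.017.

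The stroma sums did not run with this gap at both times: replicate 1 of treated TEL-AML1 cells had the higher stroma sum at day 5 and the lower one at day 7, while 18 of the 24 members were higher on replicate 1 each time and Slc4a1, Sptb, Dmtn, Uros, Tfrc and Bpgm were not. The carbonic anhydrase gene Car1, a red cell enzyme outside the set, gave 2238 and 1113 at day 5 and 2308 and 1689 at day 7, again with replicate 1 the higher. Gata1 was higher on replicate 1 at day 5, at 490.0 and 282, and nearly level at day 7, at 441 and 428. Mast cell marker sums were 14185 and 11154 at day 5 and 15955 and 13574 at day 7, also higher on replicate 1. What set the replicates apart was not tested. Without both of these replicate 1 arrays, an alternative chosen after the data were seen, the day 7 differences were 0.96 for Rhag (adjusted p = 0.00668), 0.54 for Kel (adjusted p = 0.0205), 0.98 for Ermap (adjusted p = 0.0142) and 0.48 for Slc25a38 (adjusted p = 0.0415). Those of Tfrc missed the threshold at day 5 (adjusted p = 0.0577) and day 7 (adjusted p = 0.119), as did Slc25a37 at day 5 (adjusted p = 0.236), Add2 in the mean (adjusted p = 0.158) and the response of Urod described below (adjusted p = 0.0558). Each of these fits has 1 array in both treated TEL-AML1 groups, which is taken to vary like the others.

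Treatment with IL7 and FLT3L moved few members in empty-vector cells and more in TEL-AML1 cells at day 7. With the empty vector 1 of 24 rose and 1 fell at day 5, against 8.45% and 7.16% of all genes, and 1 rose and 1 fell at day 7, against 6.29% and 9.19%. Tfrc fell by 0.47 ± 0.11 at day 5 (adjusted p = 0.0179) and fell by 0.51 ± 0.11 at day 7 (adjusted p = 0.0132). Mpp1 rose at day 5 (0.58 ± 0.15, adjusted p = 0.0282) and Slc14a1 at day 7 (0.44 ± 0.082, adjusted p = 0.00836). Each of these 4 calls ended without either untreated empty-vector array, and those of Mpp1 and Tfrc also without replicate 1 of the treated pair, with adjusted p between 0.0506 and 0.160. The Mpp1 call was lost as well with median centring (adjusted p = 0.051) and a pseudocount of 64 (0.38, adjusted p = 0.0618), and the day 7 calls with only the groups compared (adjusted p = 0.0539 for Slc14a1 and 0.0755 for Tfrc). With the stroma mean of each array as a covariate neither day 5 call remained, at 0.42 for Mpp1 (adjusted p = 0.364) and −0.51 for Tfrc (adjusted p = 0.158).

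With TEL-AML1, 1 member rose and none fell at day 5, against 1.17% and 0.438% of all genes, and 6 rose and none fell at day 7, against 4.77% and 3.08%. At an unadjusted p under 0.05 the counts in either direction were 10 and 15. The share of all genes under that threshold is not given here, and the shares above are for adjusted calls, so these counts show no excess. Slc14a1 rose at both times, by 1.22 ± 0.082 (adjusted p = 2.1e-05) and 1.56 ± 0.082 (adjusted p = 2.47e-06), and kept both calls without any single array. Ermap rose by 1.58 ± 0.35 at day 7 (adjusted p = 0.0234), Rhag by 0.99 ± 0.24 (adjusted p = 0.034) and Kel by 0.90 ± 0.19 (adjusted p = 0.0205). Blvrb rose by 1.04 ± 0.25 (adjusted p = 0.0343) and Urod, the fifth enzyme of haem synthesis, by 0.46 ± 0.11 (adjusted p = 0.0326).

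Each of these 5 day 7 calls, of Ermap, Rhag, Kel, Blvrb and Urod, ended without TEL-AML1 day 7 replicate 1, with adjusted p = 0.161, 0.208, 0.0854, 0.227 and 0.167 in that order. Without that array the rise of Kel was 0.54. Each also ended without either untreated TEL-AML1 array (adjusted p between 0.103 and 0.210). Those of Rhag, Blvrb and Urod ended as well without either untreated empty-vector array (adjusted p between 0.0581 and 0.0593), and those of Rhag and Urod without TEL-AML1 day 7 replicate 2 (adjusted p = 0.0645 and 0.0973). Median centring ended those of Rhag (adjusted p = 0.0506) and Urod (adjusted p = 0.0587), and fitting without the filter those of Rhag (adjusted p = 0.056) and Blvrb (adjusted p = 0.0571). The median response over the 24 members was 0.095 at day 5 and 0.13 at day 7 in empty-vector cells. In TEL-AML1 cells it was 0.18 and 0.34, beside −0.0078, 0.0082, 0.0097 and −0.0013 over all genes tested. Treatment here sets cytokines, medium and, by the protocol, stroma together against the maintenance culture, and these cannot be told apart.

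**Figure D4:**
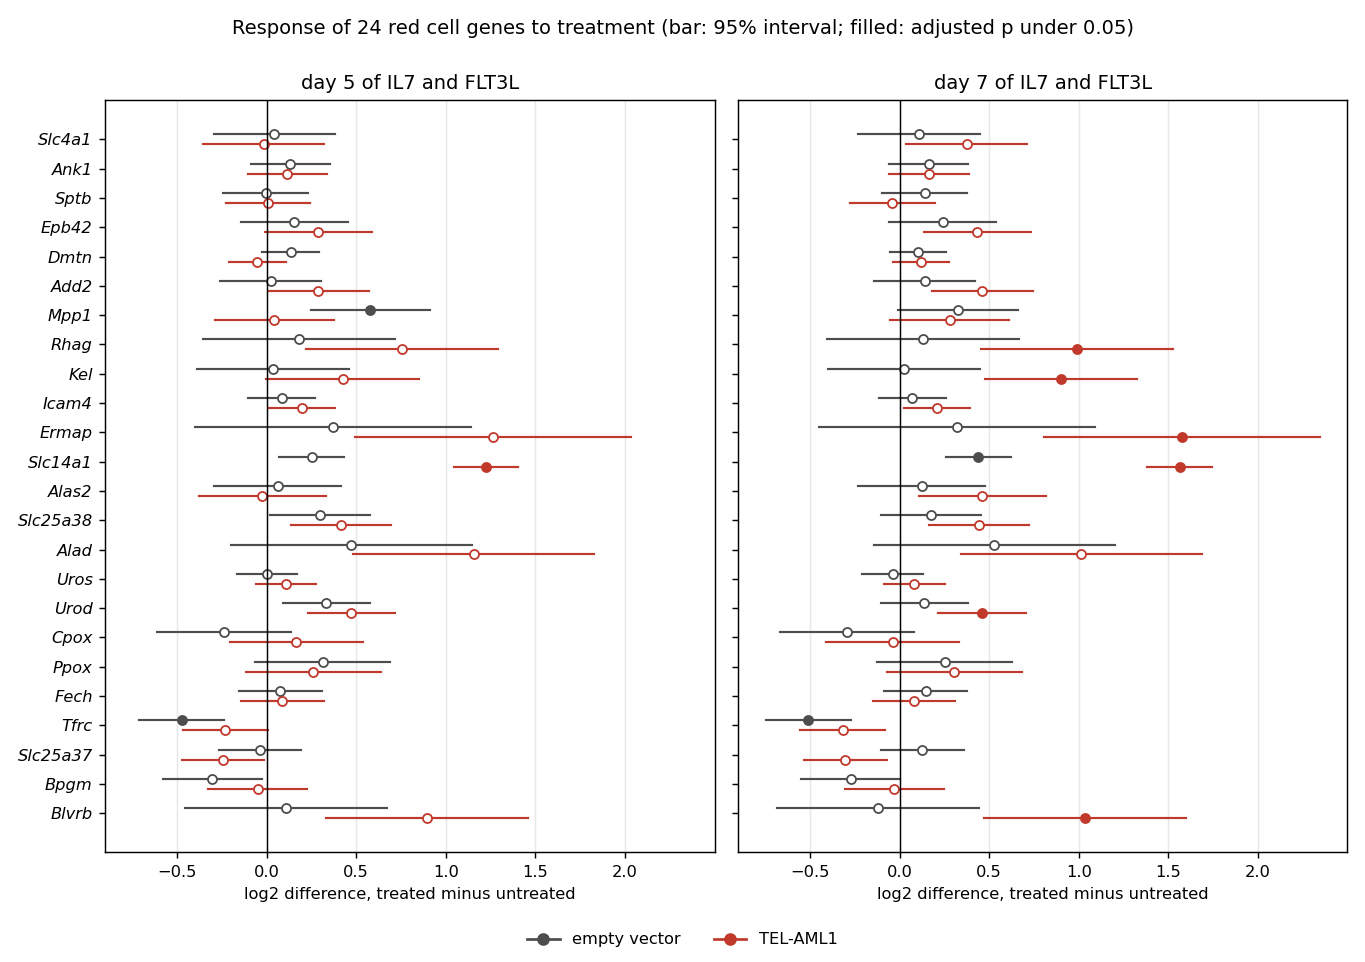
Log2 response to treatment (x axis) of the 24 tested genes at day 5 (left) and day 7 (right), empty vector in grey and TEL-AML1 in red, with 95% intervals as bars and filled points for adjusted p under 0.05. Slc14a1 was filled at day 5 and day 7 with TEL-AML1 at 1.22 and 1.56, and Tfrc was filled to the left of 0 at both times with the empty vector alone.

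Whether the responses of the vectors differed was tested as an interaction, and 1 member passed at each time, Slc14a1, where 0.0324% of all genes, 4 in number, were called at day 5 and 0.0811%, 10 in number, at day 7. Slc14a1 rose by 0.97 ± 0.12 more with TEL-AML1 than with the empty vector at day 5 (adjusted p = 0.0266) and by 1.12 ± 0.12 more at day 7 (adjusted p = 0.0104). The day 5 difference ended without any 1 of the 8 arrays that enter it, with adjusted p between 0.0614 and 0.216, and without both treated TEL-AML1 arrays numbered 1 (adjusted p = 0.088), while that of day 7 ended without any 1 of the 4 untreated arrays, with adjusted p between 0.0883 and 0.0938. For Ermap the difference in response was 1.26 ± 0.49 at day 7 (95% interval 0.17 to 2.34, adjusted p = 0.485), for Kel 0.88 ± 0.27 (interval 0.27 to 1.48, adjusted p = 0.378), for Rhag 0.86 ± 0.34 (interval 0.099 to 1.61, adjusted p = 0.494) and for Blvrb 1.16 ± 0.36 (interval 0.36 to 1.95, adjusted p = 0.378). For these genes a call with TEL-AML1 and none with the empty vector is therefore not shown to be a difference between the vectors.

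Other genes of the same pathways, from lists set beside the members, moved in both directions. Of 28 other haem and iron genes tested, 6 were higher and 1 lower with TEL-AML1 in the mean of the conditions, beside 9.85% and 12.8% of all genes tested. Slc48a1, which carries haem out of lysosomes, was higher by 0.47 ± 0.059 (adjusted p = 0.000219), Abcb10, which works with the mitochondrial iron importer, by 0.28 ± 0.063 (adjusted p = 0.00857) and Nfs1, a desulfurase of iron-sulphur cluster assembly, by 0.33 ± 0.052 (adjusted p = 0.00101). Eif2ak1, the kinase that is held inactive by haem, was lower, at −0.50 ± 0.048 (adjusted p = 3.85e-05). After treatment, 1 rose and 7 fell in empty-vector cells at day 7, against 6.29% and 9.19% of all genes, and 1 rose and 2 fell with TEL-AML1, against 4.77% and 3.08%. Hmox1, the haem oxygenase, fell in both, at −1.73 ± 0.25 (adjusted p = 0.003) and −1.14 ± 0.25 (adjusted p = 0.0242), and so did Flvcr1, described as a haem exporter, at −0.56 ± 0.092 (adjusted p = 0.00493) and −0.38 ± 0.092 (adjusted p = 0.0326).

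Of 27 other membrane and surface genes tested, 5 were higher and 3 lower with TEL-AML1 in the mean, where 9.85% of all genes were higher and 12.8% lower. Sptbn1, the beta-spectrin of non-erythroid cells, was lower, at −1.38 ± 0.15 (adjusted p = 9.06e-05), and Epb41l5 and Epb41l2, relatives of Epb41, were lower, at −0.52 ± 0.062 (adjusted p = 0.000143) and −0.41 ± 0.055 (adjusted p = 0.000378). Stom, the red cell membrane protein stomatin, was higher by 0.30 ± 0.082 (adjusted p = 0.0254) and rose with treatment in both vectors, by 0.59 ± 0.14 at day 7 with the empty vector (adjusted p = 0.022) and 0.94 ± 0.14 with TEL-AML1 (adjusted p = 0.00396).

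Of 23 other erythroid genes tested, mainly transcription factors and enzymes, 7 were higher and 2 lower with TEL-AML1 in the mean, set against the same shares of all genes. Zfpm1, the cofactor of GATA1, was higher by 0.18 ± 0.044 (adjusted p = 0.0132) and Nfe2 by 0.68 ± 0.079 (adjusted p = 0.000144). At day 7 against untreated cells, 4 of them rose and 1 fell with the empty vector, against 6.29% and 9.19% of all genes. With TEL-AML1, 7 rose and 1 fell, against 4.77% and 3.08%. The 2 carbonic anhydrase genes lay on opposite sides, with Car1 at 2.34 ± 0.28 (adjusted p = 0.000165) and Car2 at −3.53 ± 0.14 (adjusted p = 1.46e-07).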

How the data were processed

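The deposited values are intensities per probe set, on a linear scale, from 12 arrays hybridised with biotin-labelled cRNA per the labels' protocols; the sources used here do not give the authors' normalization. The 35556 probe sets were named through the platform's gene table: 21218 had 1 gene symbol, 1881 several and 12457 none listed. For each gene the probe set with the highest mean log2 intensity was kept, and genes with a mean intensity above the 40th percentile of all probe sets (60.1) were tested. One model of 6 group means was fitted to log2(intensity + 16) with limma 3.58.1 (lmFit, eBayes) in R 4.3.3 (residual degrees of freedom 6, prior degrees of freedom 4.22) for 10 contrasts, each with Benjamini-Hochberg adjustment over 12337 genes and a threshold of 0.05. The number of arrays limits the precision: standard errors of differences between vectors had a median of 0.0991. The steps were tested on simulated data. Groups came from the sample titles.

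Deviations of same-numbered arrays of both vectors correlated over genes, at 0.433 without treatment, 0.543 on day 5 and 0.376 on day 7, and those of different conditions correlated at −0.241 to 0.156; the labels do not say what the number marks. The pairing within a condition therefore comes from the data.

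Members and lists were chosen with earlier results of these data known. Members got a value for every array when called in the mean TEL-AML1 contrast, in at least 2 single TEL-AML1 contrasts or in at least 2 treatment contrasts; Alad, Blvrb, Rhd, Cldn13 and Urod were added after their values were seen. Non-members were named from the 4 genes of a list with the smallest adjusted p in the mean TEL-AML1 contrast or in the mean day 7 response, beside Car2, Gata1, Etv6 and Runx1. Alternatives covered quantile and median normalization, filters, pseudocounts of 1 and 64, probe set means, trend and array weights, replicate blocks, a stroma covariate, the groups compared alone, and each array left out. Promoters were read from the RefSeq table (GRCm38.p6) with Python 3.11.15. Globin and glycophorin genes were not analysed here.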

Additional observations from a re-analysis of the deposited data

Results flagged for a closer look

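The response of Slc14a1 to treatment differed between the vectors at both times by the interaction test. At day 5 the rise was 0.97 larger with TEL-AML1 than with the empty vector (SE 0.12, limma adjusted p = 0.0266), and at day 7 it was 1.12 larger (SE 0.12, adjusted p = 0.0104). Both treated TEL-AML1 pairs, 1202 and 1099.8 and 1552 and 1370.2, were above the untreated pair of 490.3 and 476, and all stayed below the empty-vector arrays. Because the untreated arrays enter both differences, the results at the 2 times are not independent.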

How the results depend on the processing

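Of 40 calls of members in the 10 comparisons, 20 held without any single array and 25 in every other setting run, and no called difference changed sign. The number of members called in untreated cells was 4, and it was 7 with array weights and 8 with only the groups compared. At day 5 it was 5, and it became 9 with the replicate block within each condition, 8 with a replicate block over all arrays, 3 with only the groups compared and 3 without both treated TEL-AML1 arrays numbered 1, an alternative chosen after seeing the data. At day 7 it was 8, and 3 with only the groups compared. Over all genes tested, calls in untreated cells were 338 higher and 760 lower. They became 2606 with array weights and 2374 with only the groups compared. At day 5 they were 375 higher and 528 lower. They became 1838 with the block within each condition, 861 with that over all arrays and 327 with only the groups compared. At day 7 they were 652 higher and 740 lower, and 371 with only the groups compared. The pairing within conditions changed no member's call beyond those named in the report.

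For treatment of empty-vector cells, the 2 members called at day 5 became 4 with quantile normalization, 4 with only the groups compared, 1 with median centring and 0 with the stroma covariate (limma, 4 at an unadjusted p under 0.05). The 2 called at day 7 became 0 with only the groups compared (6 at an unadjusted p under 0.05). Over all genes tested, 1043 rose and 883 fell at day 5. The calls became 1855 with quantile normalization, 1736 with only the groups compared, 1826 with median centring and 423 with the stroma covariate. At day 7, 776 of all genes rose and 1134 fell, and 290 were called with only the groups compared. With TEL-AML1, the 1 member called at day 5 became 5 with array weights and 2 with a replicate block over all arrays. The 6 at day 7 became 13 with array weights and 11 with only the groups compared. Over all genes tested, 144 rose and 54 fell at day 5, and 588 rose and 380 fell at day 7. Array weights raised these calls as well, to 469 at day 5 and 2230 at day 7. With only the groups compared they were 1648 at day 7. The block over all arrays gave fewer calls over all genes at day 5. The 1 member with a different response at day 5 became 0 without both treated TEL-AML1 arrays numbered 1 (2 at an unadjusted p under 0.05). Fewer arrays enter the fits of only the groups compared; the cause of the other changes was not tested.

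Leaving out 1 array at a time gave 3 to 5 members called in untreated cells, 4 to 8 at day 5, 3 to 10 at day 7 and 9 to 13 in the mean. It gave 0 to 3 and 0 to 2 for treatment with the empty vector at day 5 and day 7, 1 to 6 and 1 to 9 with TEL-AML1, and 0 to 1 and 0 to 2 for the differences in response. With 2 arrays a group, and with many members near the dim end of the scale, small changes could not be measured, and a member without a call may still differ.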
